A study of Mus musculus with 10 samples.

Results

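The ribosomal DNA copy of mouse chromosome 17 is a stretch of 5754 bp (mm10 chromosome 17, 39843001 to 39848754) around Rn18s-rs5, a ribosomal RNA pseudogene in the RefSeq annotation. Its members are all cytosines of CpGs in this stretch, on either strand, that had at least 10 reads in both methylation libraries. The members were chosen by their read depth in these 2 libraries, so read depth is given as a description. They numbered 855, of 892 listed in the stretch, and lay in 447 CpGs. With the same minimum of 10 reads the whole table held 2691781 cytosines, and shares of the table are shares of these.

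Levels come from reduced-representation bisulfite sequencing (RRBS), in which restriction fragments rich in CpGs are sequenced after conversion of unmethylated cytosines. TSPAN8-high and TSPAN8-low were fractions of ID4-EGFP+ spermatogonia from testes of pups at postnatal day 6. All pups carried the Id4-eGfp transgene of line LT-11B6 on a C57BL/6 background, in which green fluorescence reports expression of Id4, so both fractions share transgene, strain and age. They were separated by antibody staining for TSPAN8, a surface tetraspanin, into the most strongly and the most weakly stained cells. Each fraction gave 1 library from the DNA of 5 pooled sorts. There was therefore no replicate error, and every test compares 2 libraries, not 2 conditions. The table holds methylation only, so the identity of the cells was not checked against marker expression, and the other 8 samples of the series were not analysed here.

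Ribosomal RNA genes lie in tandem arrays of many near-identical copies on several chromosomes. RNA polymerase I transcribes each copy into a long precursor, from which the RNAs of the small and the large ribosomal subunit are cut. Only part of the copies is active in a cell, and CpG methylation is known to mark silent ones. Most array copies are missing from the mouse assembly, so reads from them can align to a lone assembled copy such as this one. The share of reads that came from the chromosome 17 copy itself was not tested, and a level here may average over many copies. Fewer methylated copies per cell, fewer methylated cytosines per copy and fewer cells with methylated copies cannot be told apart.

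The annotation divides the stretch at Rn18s-rs5 (chromosome 17, 39846354 to 39848202, 1849 bp), whose parent encodes the RNA of the small ribosomal subunit. The 3353 bp at lower coordinates, without an annotated gene, held 542 of the cytosines. Rn18s-rs5 held 185, and the 552 bp at higher coordinates held 128. The last 134 cytosines also lay in AY036118 (39848112 to 39898385), a long noncoding RNA gene. The gene table gives no strand for Rn18s-rs5, so sides are named by coordinate.

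Read depth in the stretch was far above the median of the table. A cytosine had a median of 482 reads in TSPAN8-high (10 to 3357) and 489 in TSPAN8-low (10 to 3672). Cytosines outside the stretch had a median of 16 in each library. The 855 cytosines made up 0.0318% of those with at least 10 reads in both libraries. Of the read numbers summed over all such cytosines, they held 1.12% in TSPAN8-high (556180), against 1.16% in TSPAN8-low (572772). Such sums count a read at every cytosine it covers, so these are not shares of sequenced reads. The median number of listed CpGs in 200 bp was 19 in the stretch and 2 elsewhere. The table has 1591 cytosines with 100 or more reads in each library, and 712 of them lay here. The plot of read depth shows steps at which neighbouring cytosines share a read number, as they do when they are read by the same fragments. The 2 libraries followed each other closely, with a Pearson r of 0.985 between their read numbers over the 855 cytosines. These share fragments, so the r is a description.

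**Figure D1:**
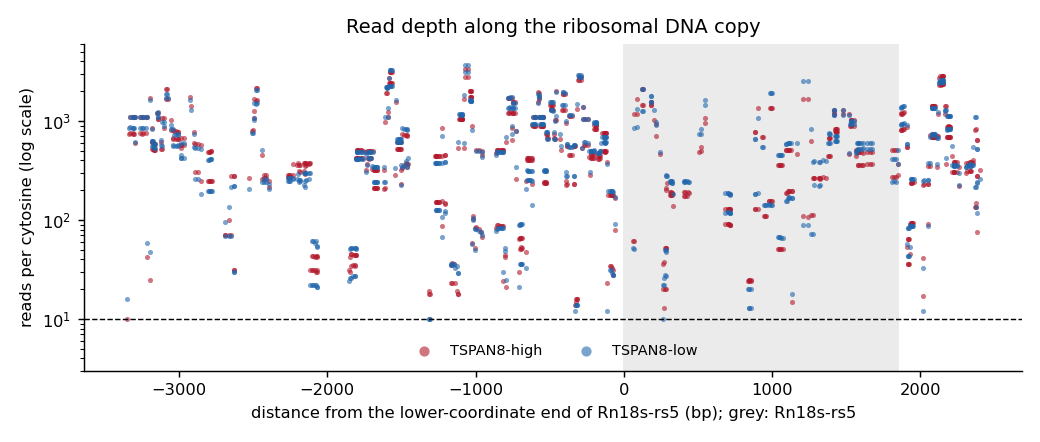
Reads per cytosine (log axis) against distance in bp from the lower-coordinate end of Rn18s-rs5, 1 point per cytosine and library, with the grey band marking Rn18s-rs5 and the dashed line the minimum of 10 reads. Both libraries step up and down together, with medians of 482 reads in TSPAN8-high against 489 in TSPAN8-low.

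Read numbers shifted between the sides of the stretch. The side at lower coordinates held 370945 reads in TSPAN8-high against 373396 in TSPAN8-low, a ratio of 0.993, while Rn18s-rs5 held 90521 in TSPAN8-high against 99993 in TSPAN8-low, a ratio of 0.905. At higher coordinates the ratio was 0.953. Windows of 500 bp ran from a ratio of 1.24 (39844001 to 39844500) to 0.797 (39846501 to 39847000). The other cytosines of the table had 1.00 in sum, which does not show how far single places differ. Single deeply read places elsewhere also had uneven read numbers, in either direction. Median reads were 471 in TSPAN8-high against 781 in TSPAN8-low in D330022H12Rik (chromosome 16), and 285.5 against 162.5 in Gm33272 (chromosome Y). These places, named after their values were seen, were not matched to the windows. The part of the shift within the stretch in the methylation values was not tested.

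Methylation in the stretch was low but not absent, and it was lower in TSPAN8-high. Levels averaged 9.45% ± 15.5 in TSPAN8-high against 13.6% ± 17.04 in TSPAN8-low (SD over 855 cytosines), with medians of 5% and 8%. The middle 50% of cytosines lay between 3% and 9% in TSPAN8-high and between 5% and 15% in TSPAN8-low. A level below 10% was found at 646 cytosines in TSPAN8-high against 489 in TSPAN8-low, a level from 10% to 50% at 174 and 327, and a level above 50% at 35 and 39. A deposited level of 0% stood at 27 of them in TSPAN8-high, against 7 in TSPAN8-low. The wide SD comes with a few highly methylated, shallow cytosines, which are described further on.

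Pooled over all reads, the level was 5.79% in TSPAN8-high against 10.04% in TSPAN8-low. The difference, high minus low, was -4.25 percentage points (95% Newcombe interval -4.35 to -4.15). The interval covers counting error only. It is too narrow even for that, as are all intervals of pooled reads here, since each read was counted at every CpG it covers. Both libraries had similar numbers of unmethylated reads, 523996 in TSPAN8-high against 515286 in TSPAN8-low. Methylated reads numbered 32184 in TSPAN8-high against 57486 in TSPAN8-low, 1.79 times as many in TSPAN8-low.

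**Figure D2:**
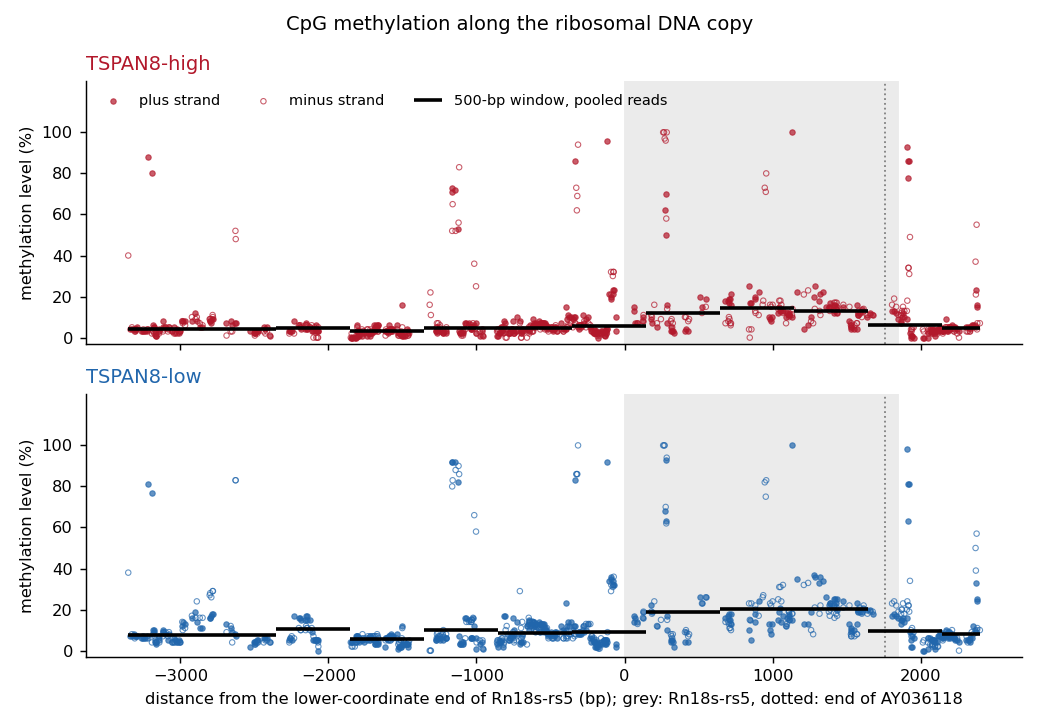
Methylation level in percent against distance in bp from the lower-coordinate end of Rn18s-rs5, for TSPAN8-high above and TSPAN8-low below, with filled points for the plus strand, open points for the minus strand, black bars for the pooled level in windows of 500 bp, a grey band for Rn18s-rs5 and a dotted line for the lower-coordinate end of AY036118. Bars lie between 3.03% and 14.6% in TSPAN8-high and between 5.54% and 20.4% in TSPAN8-low, and are highest inside Rn18s-rs5.

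Along the stretch, both libraries were most methylated inside Rn18s-rs5. There the pooled level was 12.5% in TSPAN8-high against 19.6% in TSPAN8-low. It was 4.34% and 7.90% at lower coordinates and 5.05% and 8.47% at higher coordinates. The difference was -7.10 percentage points in Rn18s-rs5 (95% Newcombe interval -7.43 to -6.77), -3.56 at lower coordinates (-3.67 to -3.45) and -3.42 at higher coordinates (-3.64 to -3.20). As a ratio the order differed: TSPAN8-low had 1.57 times the level of TSPAN8-high in Rn18s-rs5, 1.82 times at lower coordinates and 1.68 times at higher coordinates. Within AY036118 the pooled level was 5.27% in TSPAN8-high against 8.68% in TSPAN8-low.

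Windows of 500 bp placed the rise at the gene. The 7 windows from 39843001 to 39846500 had pooled levels between 3.03% and 5.67% in TSPAN8-high and between 5.54% and 10.6% in TSPAN8-low. The next 3 windows, all inside Rn18s-rs5, had 11.8%, 14.6% and 12.9% in TSPAN8-high against 18.6%, 20.4% and 20.4% in TSPAN8-low. The last 2 windows were back at 6.01% and 4.47% in TSPAN8-high and at 9.58% and 7.99% in TSPAN8-low. The difference was smallest from 39844501 to 39845000, at -2.51 percentage points, which was also the least methylated window, and largest from 39847501 to 39848000, at -7.50.

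In bins of 100 bp the profile was more uneven. Members lay in 54 of 58 bins, with pooled levels from 2.25% to 21.1% in TSPAN8-high and from 3.97% to 32.2% in TSPAN8-low. The highest bin in both libraries was 39847501 to 39847600 in Rn18s-rs5 (21.1% in TSPAN8-high, 32.2% in TSPAN8-low). The lowest in both was 39844801 to 39844900 (2.25% and 3.97%). Differences beyond -10 percentage points were found in 3 bins: 39847601 to 39847700 (-12.1) and 39847501 to 39847600 (-11.1) in Rn18s-rs5, and 39843501 to 39843600 (-10.9) at lower coordinates. TSPAN8-high was the lower library in 53 of the 54 bins, and in 50 of them the Newcombe interval lay below 0. The exception was 39846601 to 39846700 in Rn18s-rs5, with 16.4% in TSPAN8-high against 14.1% in TSPAN8-low (difference 2.24, interval 0.383 to 4.13), which holds a highly methylated, shallow patch.

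**Figure D3:**
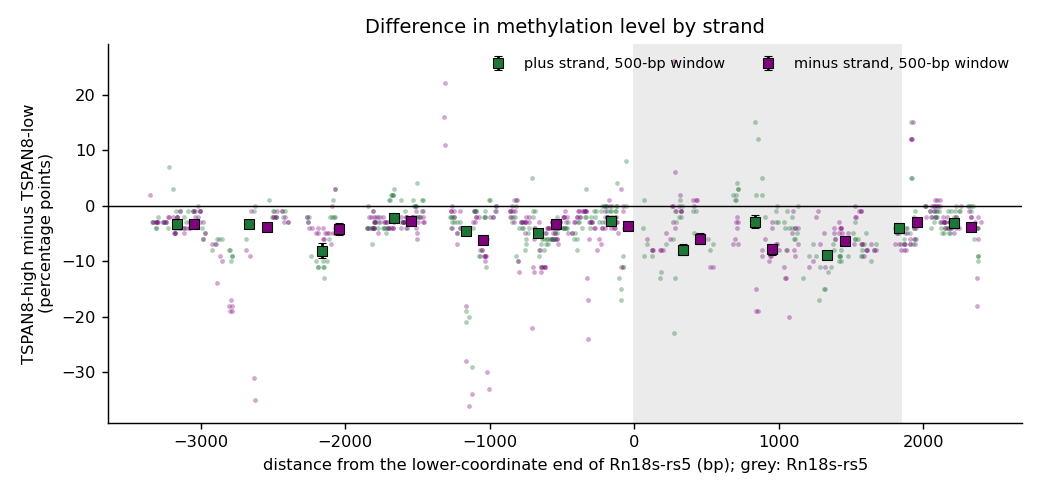
Difference in level, TSPAN8-high minus TSPAN8-low in percentage points, against distance in bp from the lower-coordinate end of Rn18s-rs5, with small points for cytosines and squares for pooled reads in windows of 500 bp by strand (plus green, minus purple), bars for 95% Newcombe intervals and a grey band for Rn18s-rs5. All 24 squares lie below 0.

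The lower level of TSPAN8-high was spread over most cytosines. Levels were lower in TSPAN8-high at 745 of the 855 cytosines, higher at 63 and equal at 47. Neighbouring cytosines share reads, so such counts and shares are descriptions. The other cytosines of the table, with a median of 16 reads, were lower at 27.8% and higher at 27.04%. Among cytosines with 100 or more reads in each library, those of the stretch were lower at 90.2% and higher at 4.63%. Such cytosines elsewhere were lower at 49.6% and higher at 34.8%. Those elsewhere that also had a mean level below 20% were lower at 48.3% and higher at 32.1%. Cytosines of such depth elsewhere were clustered. In 1 kb at Id4 (chromosome 13, from 48261001) lay 74 of them, at a mean level of 0.953%, which leaves little room for a lower level. Deposited levels carry 2 decimals, so a difference of 1 percentage point can be rounding. Beyond 1 point, 653 cytosines were lower in TSPAN8-high and 39 higher. Beyond the midpoint of Rn18s-rs5, towards higher coordinates, 106 of 109 cytosines were lower in TSPAN8-high and none was higher. Before its midpoint 51 of 76 were lower and 20 higher.

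By Fisher's exact test with Benjamini-Hochberg adjustment over all 2691781 cytosines, 106 of the 855 passed (adjusted p below 0.05, whatever the size of the difference), and all 106 were lower in TSPAN8-high. Of all cytosines tested, 0.00691% passed as lower and 0.00364% as higher. The 106 were 57.0% of the 186 cytosines of the table that passed as lower, and none of the 98 that passed as higher lay here. They fell in 86 CpGs, 56 on the plus and 50 on the minus strand, with 61 at lower coordinates, 32 in Rn18s-rs5 and 13 at higher coordinates. Their differences ran from -19 to -3 percentage points, with a median of -7. All had at least 196 reads in either library. At an unadjusted level, 468 of the 855 (54.7%) had a p below 0.05, beside 2.72% of the whole table and 18.9% of cytosines elsewhere with 100 or more reads in each library.

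With a minimum difference of 20 percentage points, no cytosine of the stretch passed, beside 0.00208% (lower) and 0.0036% (higher) of all cytosines. With a minimum of 10 points 24 did, all lower in TSPAN8-high, beside 0.00308% of all cytosines that passed as lower and 0.0036% as higher. When methylated and unmethylated reads were halved, since mates of a pair may both have been counted, 17 passed at any size, and when read numbers were capped at 100 per cytosine none did. The share of all cytosines that passed after halving or capping was not counted. Each read was counted at all CpGs it covers, and reads carry no molecular identifiers, so p values are smaller than the independent molecules would give. Intervals of pooled reads are too narrow for the same reasons.

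The 3 deepest cytosines lay at lower coordinates, and their levels are given as percent of reads. At 39845302 (plus strand) the level was 7% of 3355 in TSPAN8-high and 15% of 3672 in TSPAN8-low (adjusted p = 7.84e-21, Fisher's exact test). At 39845285 (plus strand) it was 7% of 3357 in TSPAN8-high and 16% of 3669 in TSPAN8-low, or -9 percentage points (95% Newcombe interval -10.5 to -7.53). Its adjusted p of 2.91e-26 by Fisher's exact test was the lowest in the stretch. At 39844779 (minus strand), with 4% of 3119 in TSPAN8-high and 6% of 3299 in TSPAN8-low, the adjusted p was 0.382 (Fisher's exact test). Each of the 3 had a lower level in TSPAN8-high, and at the third the difference was 2 points.

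The largest differences lay at shallow cytosines. The most negative was -36 percentage points at 39845213 (minus strand), with 52% of 23 in TSPAN8-high and 88% of 33 in TSPAN8-low. It was followed by -35 at 39843728, -34 at 39845233, -33 at 39845351 and -31 at 39843726, all on the minus strand and with 18 to 52 reads. The most positive was 26 at 39846632 (minus strand, Rn18s-rs5), with 96% of 52 in TSPAN8-high and 70% of 50 in TSPAN8-low. After it came 22 at 39845043, 16 at 39845038, and 15 at 39847194 and 39848272, with 10 to 43 reads. None of these 10 passed, with adjusted p values from 0.468 to 1 (Fisher's exact test). Among those that passed, the largest differences, chosen after their values were seen, were -19 points at 39843555 (9% of 247 reads in TSPAN8-high, 28% of 196 in TSPAN8-low) and at 39843574 (10% of 247, 29% of 197), both on the minus strand. On the plus strand of the same CpGs, at 39843554 and 39843573, the differences were -8 and -9 and did not pass (adjusted p = 0.377 and 0.209, Fisher's exact test).

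In tiles of 1 kb, tested over 187549 tiles of the genome, all 6 tiles of the stretch passed as lower in TSPAN8-high at any size, where 0.47% of all tiles passed as lower and 0.493% as higher. The highest of their adjusted p values was 1.42e-154 (Fisher's exact test), from 58614 to 154447 reads per tile and library. At such read numbers small differences pass. Tiles were not matched for reads, so the shares of all tiles do not show how unusual the 6 are. The smallest difference was -2.77 percentage points in the tile from 39844001 (3.21% in TSPAN8-high, 5.98% in TSPAN8-low). The largest was -6.99 in the tile from 39847001 (13.4% and 20.4%). None reached the minimum of 10 points, at which 0.305% of all tiles passed as lower and 0.343% as higher. With 1 CpG kept per 100 bp, the differences of the 6 tiles ran from -7.19 to -2.68 and the highest adjusted p was 6.85e-06 (Fisher's exact test).

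The 2 strands of a CpG are read by different reads, so the strands give the difference a second time within the same libraries. On the plus strand 426 cytosines had a pooled level of 5.86% in TSPAN8-high against 10.2% in TSPAN8-low, or -4.33 percentage points (95% Newcombe interval -4.47 to -4.18). On the minus strand 429 cytosines had 5.72% and 9.90%, a difference of -4.18 (-4.31 to -4.04). In pooled reads, TSPAN8-high was lower in all 12 windows of 500 bp on both strands, with every interval below 0. The strands were not alike everywhere. From 39847001 to 39847500, in Rn18s-rs5, 15 plus-strand cytosines were lower and 12 higher, with a mean difference of -0.138. On the minus strand of that window all 33 were lower, with a mean of -8.12. Of 408 CpGs measured on both strands, 318 were lower in TSPAN8-high on both, 4 were higher on both, and 86 were mixed or tied. The size of the difference was less alike, with a Pearson r of 0.245 between strands, given as a description.

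Plus and minus strands had similar levels at most CpGs, but not at all. Over the 408 CpGs, the plus strand averaged 9.02% and the minus strand 8.35% in TSPAN8-high, a difference of 0.667 percentage points, and 12.8% and 13.0% in TSPAN8-low, a difference of -0.174. The sign in TSPAN8-low turned with pooled reads (0.361) and at 5 or more reads (0.152). The median CpG differed by 2 points between strands in either library, and 340 CpGs in TSPAN8-high against 324 in TSPAN8-low lay within 5 points. More than 20 points separated the strands in both libraries at 20 CpGs, and at 19 of them one strand had under 100 reads in at least 1 library. At 39846039, for example, the plus strand was at 5% of 1315 in TSPAN8-high and 8% of 1470 in TSPAN8-low, whereas the minus strand was at 94% of 16 and 100% of 14. The CpG at 39848724 was deep on both strands, with 6% on the plus and 37% on the minus strand in TSPAN8-high, and 10% and 50% in TSPAN8-low, from at least 134 reads each.

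Levels varied with depth. In the 79 cytosines with a mean of under 50 reads, the average level was 32.8% in TSPAN8-high against 38.6% in TSPAN8-low. The fall with depth was not steady. With 50 to under 100 reads the average was 13.4% in TSPAN8-high against 16.2% in TSPAN8-low, and with 100 to under 200 it was 16.2% and 20.9%. With 200 to under 500 reads it was 5.79% and 10.01%. With 500 to under 1000 reads it was 6.05% in TSPAN8-high against 9.94% in TSPAN8-low (212 cytosines), and with 1000 or more it was 5.55% and 9.54% (189 cytosines). TSPAN8-high had the lower average in every depth class, by 2.78 to 5.82 percentage points, and by 3.90 and 3.99 in the 2 deepest. The share of cytosines lower in TSPAN8-high was 67.1% in the shallowest class and 96.8% in the deepest.

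**Figure D4:**
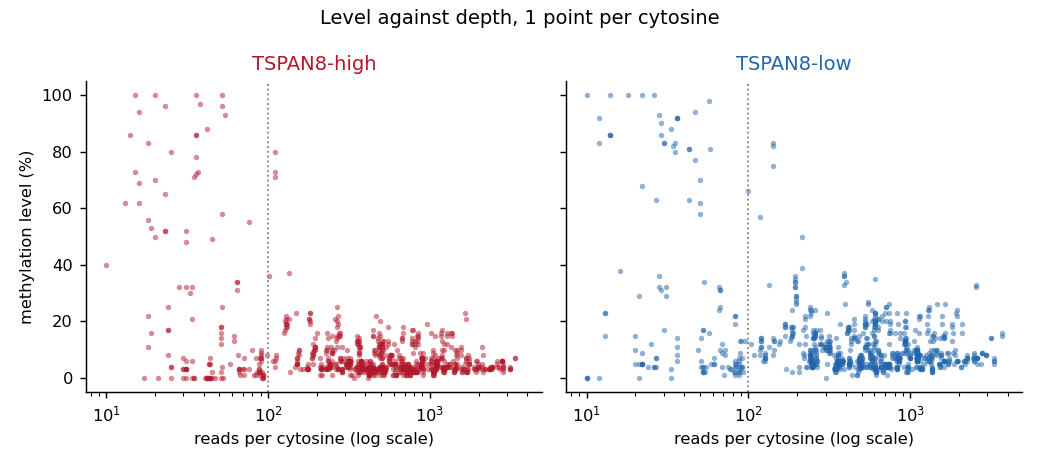
Methylation level in percent against reads per cytosine (log axis), 1 point per cytosine, TSPAN8-high on the left and TSPAN8-low on the right, with a dotted line at 100 reads. Levels above 50% lie almost only left of the line, and 3 of the 38 cytosines with a mean level above 50% have at least 100 reads in both libraries.

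The 38 cytosines with a mean level above 50% lay in 11 patches, taking those within 50 bp of each other as 1 patch, and had medians of 31 reads in TSPAN8-high against 34.5 in TSPAN8-low. The patch from 39845189 to 39845237, at lower coordinates, held 9 of them and averaged 64.1% in TSPAN8-high against 87.2% in TSPAN8-low, from 18 to 37 reads each. The patch from 39846615 to 39846639, in Rn18s-rs5, also held 9 and averaged 81.4% and 83.3%, from 10 to 52 reads. In the patch in Rn18s-rs5 lay 3 of the 5 most methylated cytosines: 39846615 with 100% of 20 in TSPAN8-high and of 10 in TSPAN8-low, 39846621 with 100% of 36 and of 22, and 39846625 with 97% of 38 and 100% of 26, all on the minus strand. The others were 39847487 on the plus strand (100% of 15 and of 18) and 39846040 on the minus strand (94% of 16 and 100% of 14). The deepest such patch was 39847301 to 39847311 on the minus strand of Rn18s-rs5, where 3 cytosines averaged 74.7% of 110 in TSPAN8-high and 80% of 141 to 142 in TSPAN8-low. Deep cytosines lay in the same span as some patches: at 39843161 the plus strand was at 80% of 25 reads in TSPAN8-high, and the minus strand of the same CpG at 2% of 1699.

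At the other end of the range, the 5 least methylated cytosines were 39848368, 39848374 and 39848402 on the plus strand, and 39848613 and 39844517 on the minus strand. The deepest of them, 39848613, was listed at 0% of 340 reads in TSPAN8-high and 0% of 301 in TSPAN8-low, where rounding hides levels below 0.5%. The cytosine at 39848402 had 0 of 92 methylated reads in TSPAN8-high, which allows up to 3.26%, and 1% of 88 in TSPAN8-low. Of the 5, 4 lay beyond the higher-coordinate end of Rn18s-rs5. The place of 39844517 was tied, since 39844532, 39845396 and 39845397, also at lower coordinates, had the same mean level of 1%.

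The difference was larger where the level was higher, in pooled reads up to a mean level of 50%. Cytosines with a mean level under 5% had pooled levels of 2.49% in TSPAN8-high against 4.49% in TSPAN8-low, a ratio of low to high of 1.80. Those from 5% to 10% had 4.68% and 8.24% (1.76), those from 10% to 20% had 10.02% and 17.1% (1.71), and those from 20% to 50% had 18.8% and 28.8% (1.53). The 38 above 50% had 73.0% and 79.8% (1.09). Averaged over cytosines, the difference was -8.41 percentage points from 20% to 50% and -9.53 above 50%. Classes were set by the mean of the same 2 libraries, so no test was made. Levels of the libraries followed each other over the 855 cytosines (Pearson r 0.950, Spearman rho 0.839, a description, since neighbours share reads).

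The stretch stood between 2 kinds of surroundings. Of the 855 cytosines, 795 had 10 or more listed CpGs in the 200 bp around them. The 265271 such cytosines elsewhere averaged 1.55% in TSPAN8-high against 1.54% in TSPAN8-low, with a mean difference of 0.0121 percentage points and the same median of 0% in both. The rest of chromosome 17 averaged 69.9% in TSPAN8-high against 70.0% in TSPAN8-low. Within 10 kb either side of the stretch only 8 cytosines had at least 10 reads in both libraries, and they averaged 54.6% and 61.9%. The stretch was therefore less methylated than its surroundings and more than CpG-dense places elsewhere, in both libraries, and these levels were not tested against each other.

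Other deeply read places gave a mixed picture. In the stretch 14.9% of the 712 cytosines with 100 or more reads in each library passed as lower in TSPAN8-high and none as higher. Of 879 such cytosines elsewhere, 2.73% passed as lower and 0.114% as higher, and of the 352 with a mean level below 20% among them, 6.53% passed as lower and 0.284% as higher. Depth was not matched in these shares. Median reads in TSPAN8-high and TSPAN8-low were 531 and 595.5 for the 712, 264 and 246 for the 879, and 292.5 and 329.5 for the 352. Within the stretch, 6.42% passed with a mean of 200 to under 500 reads, and 39.7% with 1000 or more. Over 1-kb tiles with at least 5 deep cytosines, the 6 of the stretch had a median difference of -3.97 percentage points in pooled reads, and the 42 elsewhere -0.561 (-9.35 to 2.99). All 6 of the stretch had a mean level below 20%, and the 15 such tiles elsewhere had a median of -2.22. Of the 15, 9 were lower in TSPAN8-high. Among the 15 were tiles at Id4 on chromosome 13, from 48261001 and from 48262001, with 74 and 33 deep cytosines. Their mean levels were 0.953% and 1.67%, and their differences 0.297 and 0.818. Of the 42, 10 lay at or below -2.77, the value of the least different tile of the stretch, and 7 of these 10 were among the 15. These 7, named after their values were seen, lay on chromosome 18 in Gm30821 (13.4% in TSPAN8-high, 22.7% in TSPAN8-low), on chromosome 16 in D330022H12Rik (15.1% and 22.2%), on chromosome 5 in Cdk8, a kinase gene of the Mediator complex (7.32% and 13.4%), on chromosome 12 in Gphn, which encodes the synaptic scaffold gephyrin (7.75% and 13.7%), on chromosome 11 in Gm36876 (4.98% and 8.60%), and outside annotated genes on chromosomes 8 (6.27% and 11.8%) and 3 (5.30% and 8.65%). Whether reads of ribosomal DNA align at these tiles was not tested.

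**Figure D5:**
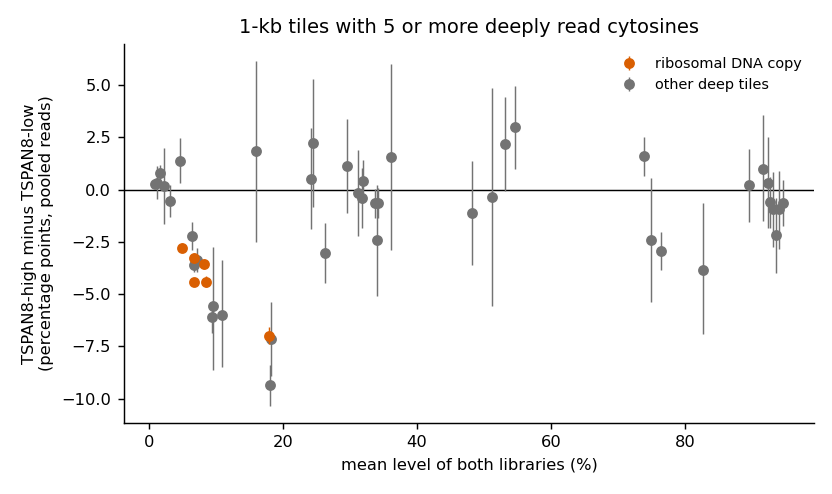
Difference in pooled reads, TSPAN8-high minus TSPAN8-low in percentage points, against the mean level of both libraries in percent, for 1-kb tiles with at least 5 cytosines of 100 or more reads in both libraries, with 95% Newcombe intervals as bars. The 6 tiles of the ribosomal DNA copy (orange) lie between -6.98 and -2.77, and the 42 others (grey) between -9.35 and 2.99.

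The weight of the stretch in the whole table was small. Reads were pooled over the 2691781 cytosines of the table with at least 10 reads in both libraries. The level was 70.8% in TSPAN8-high against 71.4% in TSPAN8-low, and differed by -0.578 percentage points. Without the stretch it was 71.6% and 72.1%, a difference of -0.561.

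In the authors' deposited table, 801 of the 855 cytosines are classed as insignificant and 54 (6.32%) have a p below 0.05, beside 2.69% of the whole table. That table gives a p of 1 to every listed cytosine whose deposited difference is below 0.10, 4624585 in all. In the stretch this holds for 762 cytosines, of which 407 had a p below 0.05, and 79 an adjusted p below 0.05, by Fisher's exact test on the read numbers.

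The minimum of 10 reads left out 37 listed cytosines, in which the lower of both read numbers was 5 to 9. They averaged 46.1% in TSPAN8-high against 46.0% in TSPAN8-low. The 16 cytosines just inside the minimum, with 10 to 14 reads in the shallower library, averaged 46.2% in TSPAN8-high against 50% in TSPAN8-low.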

How the data were processed

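DNA methylation was compared between 1 TSPAN8-high and 1 TSPAN8-low RRBS library, made per the labels' protocols from 300 ng of DNA of 5 pooled sorts, cut with 3 restriction enzymes, and sequenced with paired reads of 50 bp. The authors deposited 1 table with a line per cytosine. Its methylation level is a fraction, methylated over all reads, deposited with 2 decimals. Its coverage columns hold deposited read counts, of at least 5 in both libraries. The authors' deposited p-value comes from a test not given in the sources used here. Bowtie, SICER, mm9 and mm10 are named, with no role, in the submitters' processing notes. Positions were checked on RefSeq promoter sequences of GRCm38.p6: all 10814 listed cytosines of chromosome 17 inside them fell on a CG, so mm10 coordinates are given.

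The product of level and coverage, rounded, gave the methylated reads. The rounded level leaves an error of up to 0.5 percentage points, and counting intervals do not cover it. Cytosines covered by 10 or more reads in each library were tested by two-sided Fisher's exact test, adjusted by the Benjamini-Hochberg method over the whole table. Passing was defined as an adjusted p below 0.05, with a minimum difference of 20 points for cytosines and 10 for 1-kb tiles of at least 3 CpGs. Intervals are 95% Newcombe intervals, and a share of 0 is given with the limit that 3 counts allow. Reads carry no molecular identifiers, so they are not independent molecules and both cover counting error only. Intervals of pooled reads also count a read at each CpG it covers, which makes them too narrow. The test was checked on simulated data. Python 3.11.15, numpy 2.4.6, scipy 1.17.1 and pandas 2.3.3 were used.

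The stretch, its bounds and the classes were chosen with earlier results of these data known. Named cytosines are the 5 with the highest and lowest level, the 5 with the largest difference in each direction and the 3 deepest, and others are marked as chosen after their values were seen. Alternatives were other read minima, pooled reads, single strands, 1 CpG per 100 bp, leaving out the deepest 5%, halved reads, other minimum differences and the deposited p. Moving levels together by their rounding and a cap of 100 reads were chosen after seeing the data.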

Additional observations from a re-analysis of the deposited data

How the results depend on the processing

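The mean difference of the copy, -4.17 percentage points, was negative under all 8 alternatives: -4.00 at 5 or more reads, -4.06 at 100 or more, -3.82 on the plus strand, -4.53 on the minus strand, -4.66 with 1 CpG per 100 bp, -4.12 at 20 or more reads, -4.25 with pooled reads and -4.18 without the deepest 5%. The number of cytosines passing by Fisher's exact test at any size, 106, was 17 with halved reads, 19 with the authors' deposited p, 47 with levels moved together by their rounding and 0 with at most 100 reads per cytosine; fewer reads give less power by construction, and all that passed were lower in TSPAN8-high. A minimum of 5 reads gave 78 and one of 20 gave 156. The share of the whole table that passed under these alternatives was not counted, so the numbers describe the stretch alone. With a minimum of 20 points none passed under any of these, and with 10 points 24 did. No tile reached 10 points, and 6 passed with no minimum. The difference between strands, 0.667 in TSPAN8-high, was 0.441 at 20 or more reads and 0.252 with pooled reads. In TSPAN8-low, -0.174 turned to 0.152 at 5 or more reads and to 0.361 with pooled reads, and the cause was not tested. Levels themselves depend on the weighting more than the difference does: 9.45% and 13.6% as means, 5.79% and 10.04% in pooled reads. No paired analysis was possible because each fraction had 1 library.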

Other observations

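Read numbers per cytosine were even at 47.8% of the cytosines of the copy in TSPAN8-high and 53.0% in TSPAN8-low, whereas they were even at 73.0% and 73.1% of the other cytosines of the table. Where other cytosines had 100 or more reads in each library, the shares were 55.1% and 54.3%.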
